A study of Mus musculus with 8 samples.

Results

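The kappa chain variable segments (gene symbols starting with Igkv) were described in B-cell-biased lymphoid progenitors from mouse bone marrow. All 100 Igkv genes among the 37991 gene IDs of the count table were taken, by their symbol in the annotation of the genome build, and grouped into 19 families by the number after Igkv. The groups were 4 pools of H2afy-/- mice (H2afy_KO) and 4 pools of H2afy+/+ mice (H2afy_WT), which lack and carry the gene for the histone variant macroH2A1. Mice were 5 to 12 weeks old, and each pool held RNA of 5000 to 15000 Kit-enriched, flow-sorted cells of 2 to 3 mice, read as single reads of 50 bases. Strain and the deleted part of the allele are not stated in the labels, nor is whether pools shared mice or what a replicate number marks.

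A kappa light chain is encoded by a variable segment that the RAG recombinase has joined to a J segment (Igkj), upstream of the constant exon (Igkc). RAG cuts at a recombination signal sequence beside each segment, made of a heptamer, a spacer and a nonamer, with the heptamer touching the coding end. Joining deletes the intervening DNA when the segment lies in the orientation of Igkc and inverts it when it lies opposite. Each rearranged cell and its descendants transcribe mainly their own joined segment, so the mix of segments in a sample reflects which rearranged cells it holds and how much kappa RNA each contains. In B-lineage development kappa joining follows heavy chain joining, after the lymphoid progenitor stage, and plasma cells hold very large amounts of light chain RNA.

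The 100 segments lay within 3148.54 kb of chromosome 6 (NCBIM37, the assembly of mm9), from 18.4 to 3166 kb before Igkj1. Of them, 38 lay in the orientation of Igkc and 62 opposite to it. The annotation gave 82 of them 2 exons, a leader exon and the variable exon. Another 2 variable-type genes of the locus, Gm16637 and Gm16774, carry no Igkv symbol and were not counted as members. Sequence read from the genome just after the last exon is shown for the segments that led a pool or carried a large share in one, because this is the stretch through which each can be joined. In these 28 bases the capitals mark the heptamer and the nonamer, with the 12-base spacer between them in lower case. The stretches are chr6:67846637-67846664 for Igkv14-126, chr6:67741506-67741533 for Igkv14-130 and chr6:67560503-67560530 for Igkv1-135, all on the plus strand. On the minus strand they are chr6:69233760-69233787 for Igkv4-69, chr6:69773321-69773348 for Igkv5-43, chr6:70285807-70285834 for Igkv6-20 and chr6:69764597-69764624 for Igkv12-44.
Igkv14-126: CACGTTGatacaagtaataACATAAACC
Igkv14-130: CACAGTGatacaagtcataACATAAACC
Igkv1-135: CACAGTGattcagacccgaACAAAAACT
Igkv4-69: CACAGTGatacagactggaACAAAAACC
Igkv5-43: CACAGTGatgcagaccataGCAAAAATC
Igkv6-20: CACAGTGcttcagcctcccACATAAACA
Igkv12-44: CACAGTGattcaagccatgACATAAACC
Igkv14-126, the segment with the largest share of counts, was the one of these 7 whose heptamer differed from CACAGTG, at 2 positions counted from the heptamer's 5′ end, A4G and G5T. The exact heptamer CACAGTG stood at the end of 75 of the 100 segments, and of 0.363% of 37207 other genes. Searched on both strands in the 40 bases after the gene end, it was found for 83 segments and for 1.37% of the other genes. At the place set by a 12-base spacer after a heptamer at the annotated end, the exact nonamer ACAAAAACC stood in 25 segments. Averaged over pools, the segments with the exact heptamer at the annotated end held 65.1% of Igkv counts and the other 25 held 34.9%. The other 25 include Igkv14-126. The median share was 0.158% for segments with the exact heptamer at that end and 0.0426% for the others. Some of those others, such as Igkv4-80, hold the exact heptamer a few bases further on. The split thus partly follows where the annotation ends.

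Upstream sequence is shown for 2 leading segments and for 1 family 6 segment. They were chosen because the exact octamer of variable segment promoters was found in some families and not in others. Each stretch is the 120 bases before the annotated gene start, with the octamer ATTTGCAT in capitals, from chr6:67846051-67846170 (plus strand) for Igkv14-126, chr6:69234314-69234433 (minus strand) for Igkv4-69 and chr6:70286501-70286620 (minus strand) for Igkv6-20.
Igkv14-126: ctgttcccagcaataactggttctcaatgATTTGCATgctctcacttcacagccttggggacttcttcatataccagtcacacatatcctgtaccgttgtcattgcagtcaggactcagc
Igkv4-69: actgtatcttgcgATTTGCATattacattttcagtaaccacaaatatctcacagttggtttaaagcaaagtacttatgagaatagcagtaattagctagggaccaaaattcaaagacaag
Igkv6-20: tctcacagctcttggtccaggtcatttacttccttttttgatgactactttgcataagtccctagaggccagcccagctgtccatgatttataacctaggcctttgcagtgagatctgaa
Searched on both strands in the 250 bases before the start, the exact octamer was found for 60 of the 82 segments with 2 exons (73.2%). The same search found it for 1.93% of 37207 other genes. In the segments it began at position -132 to -83 relative to the start, with a median of -103. None of the 14 such segments of families 6 and 8 held the exact octamer, against 60 of the 68 of the other families. The Igkv6-20 stretch shown holds CTTTGCAT, which differs from the octamer at 1 base, and such variants were not searched for. The median share of Igkv counts was 0.107% for segments with the exact octamer and 0.253% for those without it.

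The pools held 21330088 to 29029765 counts each, and 13722 genes passed the filter on low counts. H2afy had 1423 to 1953 CPM (counts scaled to a common library size, with trimmed mean of M-values factors, TMM) in H2afy_KO and 1981 to 2567 CPM in H2afy_WT, with no overlap, so RNA over the gene was still counted in the pools labelled H2afy_KO. The progenitor markers Flt3, Kit, Il7r, Ly6d and Dntt were present in every pool. Of all 11 listed progenitor markers, 2 had a positive log2 fold change (H2afy_KO over H2afy_WT), against 50.1% of all genes, and the median was -0.495. In 5 of the 11 the CPM was lower in H2afy_KO without overlap, against 2.35% of all genes, and 0 were called by edgeR. DESeq2 called 2 of the 11 lower, where it called 0.539% of all genes lower. An edgeR fit with replicate as a blocking term called 1 of the 11 lower, against 0.0802% of all genes. Immunoglobulin genes took 0.401%, 10.1%, 39.4% and 33.7% of all counts in H2afy_KO pools 1 to 4, against 3.51%, 1.003%, 19.6% and 13.0% in H2afy_WT pools 1 to 4. H2afy_KO 3 and H2afy_KO 4 thus stood highest and H2afy_KO 1 lowest, and the groups overlapped.

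Igkv RNA varied more between pools of 1 genotype than between the genotypes. The 100 segments together had 4099, 295304, 1236771 and 1473095 counts in H2afy_KO pools 1 to 4, against 139899, 21855, 915102 and 528369 counts in H2afy_WT pools 1 to 4. This was 0.0153%, 1.38%, 5.40% and 5.07% of all counts in the H2afy_KO pools, and 0.528%, 0.0968%, 3.71% and 2.08% in the H2afy_WT pools. H2afy_KO 3 and H2afy_KO 4 were above every other pool, H2afy_KO 1 was below every other pool, and the groups overlapped. The mean share was 2.97 ± 2.68% in H2afy_KO and 1.60 ± 1.64% in H2afy_WT (SD, n = 4 each). Without H2afy_KO 3 and H2afy_KO 4 the difference turned round, to 0.902 percentage points lower in H2afy_KO. As these were the highest pools, leaving them out lowers the H2afy_KO mean by construction. In RNA of sorted pools, fewer cells of a type and less RNA per cell cannot be told apart.

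The constant exon followed the segments closely. Igkc had 1.47, 1.51, 1.90 and 1.38 counts per Igkv count in H2afy_KO pools 1 to 4, against 1.55, 1.65, 1.44 and 1.35 in H2afy_WT pools 1 to 4. The ratio stayed between these bounds although the Igkv total differed by more than 2 orders of magnitude. Igkc averaged 61946 ± 64927 CPM in the H2afy_KO pools and 22692 ± 24289 CPM in those of H2afy_WT (SD, n = 4 each), a log2 fold change of 1.45 (SE 1.74, edgeR adjusted p = 0.888). The joining segments Igkj1 to Igkj5 had 0 counts in every pool.

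Markers of plasma cells, the antibody-secreting cells of the B lineage, moved with the Igkv total as a sum, but not each on its own. The summed level of 13 plasma cell markers was 229, 5629, 21564 and 18017 CPM in H2afy_KO pools 1 to 4, against 2384, 670, 9405 and 6585 CPM in H2afy_WT pools 1 to 4. The 8 pools stood in the same order by this sum as by their Igkv share of all counts. Igj, the joining chain of secreted antibody, made up most of this sum in all pools except H2afy_KO 1 and H2afy_WT 2. Outside these pools the sum mainly follows that gene. Igj had 32.4, 5055, 18967 and 16323 CPM in the H2afy_KO pools and 1895, 282, 8638 and 5916 CPM in the H2afy_WT pools. Xbp1, the factor that expands the secretory apparatus, had 35.2, 98.2, 475 and 219 CPM in H2afy_KO and 45.2, 46.3, 103 and 78.2 CPM in H2afy_WT. Prdm1, which encodes the regulator of plasma cell differentiation Blimp-1, had 1.08, 9.70, 67.3 and 34.3 CPM in H2afy_KO and 5.27, 5.06, 17.1 and 12.3 CPM in H2afy_WT. Sdc1, the surface marker CD138, had 35.3, 53.2, 151 and 118 CPM in H2afy_KO and 36.8, 37.9, 40.3 and 36.7 CPM in H2afy_WT. Within H2afy_WT it thus stayed nearly level while the Igkv share differed between pools. Irf4 had 9.02 to 181 CPM in H2afy_KO and 25.8 to 49.6 CPM in H2afy_WT, and Mzb1, listed as 2010001M09Rik, 62.8 to 725 CPM in H2afy_KO and 196 to 291 CPM in H2afy_WT. All 13 had a positive log2 fold change, as had 50.1% of all genes, and 0 passed the edgeR test, where 0% of 13722 genes passed. DESeq2 called 1 of the 13 higher, Sdc1 (log2 fold change 1.24, SE 0.35, adjusted p = 0.0493), where it called 0.357% of all genes higher. Of mature B cell markers the summed level was 1173 to 7968 CPM in H2afy_KO and 1681 to 3867 CPM in H2afy_WT. Cd74 was the largest part of this sum in every pool, at 697 to 7342 CPM in H2afy_KO and 801 to 3126 CPM in H2afy_WT, so the sum mainly follows that gene. Ms4a1, which encodes CD20, had 0.381 to 48.3 CPM in H2afy_KO and 2.00 to 16.9 CPM in H2afy_WT, and Cr2 and Fcer2a, which mark mature B cells, stayed at 0.264 to 1.84 CPM in all pools. The part of these cells in the Igkv counts was not tested.

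**Figure D1:**
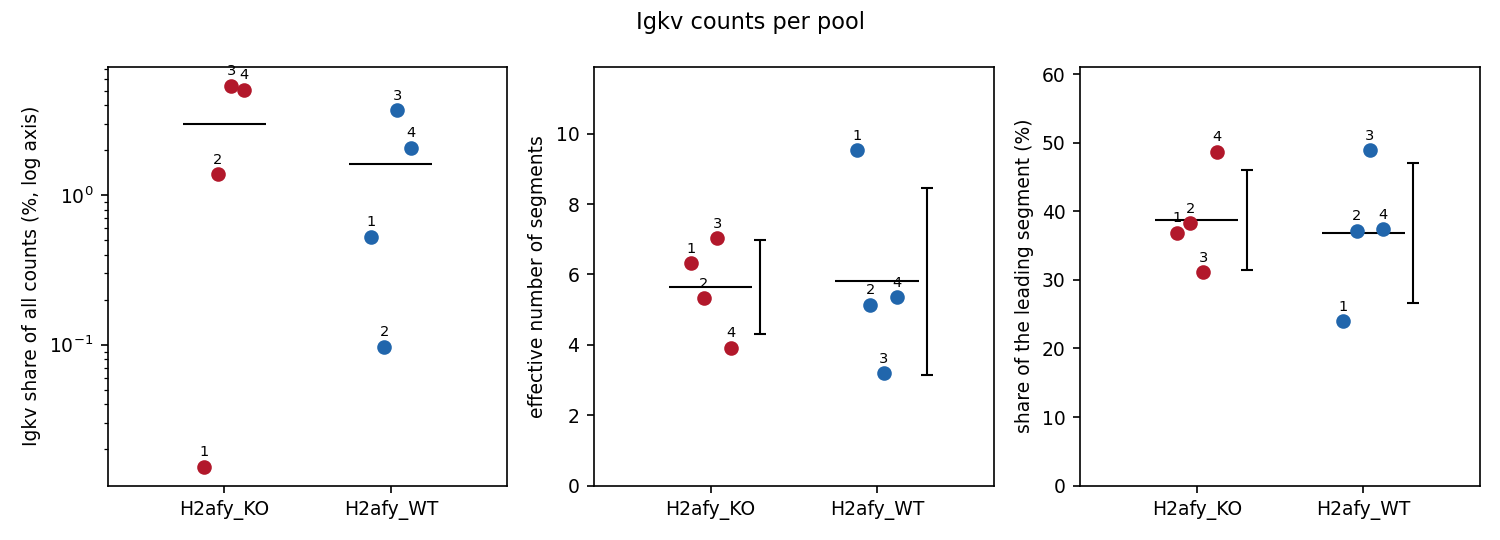
Each point is 1 pool, numbered by replicate, with H2afy_KO left of H2afy_WT: the Igkv share of all counts (%, log axis), the effective number of segments, and the share of the leading segment (%). Lines are means, and bars, drawn in the linear panels, ± 1 SD (n = 4 each); the groups overlap in all 3 panels and H2afy_KO 1 lies lowest in the first.

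The segments of the H2afy_KO 1 pool were present in nearly the proportions of the other 7 pools added together. Among the 39 segments with at least 10000 counts in the other 7 pools, the count in H2afy_KO 1 was 0.0566% to 0.169% of that sum, with a median of 0.0905%, and all 39 lay within 2-fold of the median. Igkc stood at 0.0847% of the other pools and Igj at 0.0822%. The Igkv shares of H2afy_KO 1 overlapped by 95.0% with those of the other pools' sum, against 57.1% to 65.4% for H2afy_KO 2 to 4 and 27.0% to 76.1% for the H2afy_WT pools. For example, Igkv14-130 had 407 counts in H2afy_KO 1 against 557087 in the other pools, of which 447384 came from H2afy_WT 3. Igkv5-43 had 262 counts in H2afy_KO 1 against 231287 in the others, of which 225185 came from H2afy_KO 3.

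The same ratio was a lower bound in the whole series. Over the 8 pools there were 293 pairs of a pool and a segment with at least 10000 counts in the other 7 pools, and 0 of them lay more than 2-fold below the median ratio of H2afy_KO 1. Within 2-fold of that median lay 39 of 39 segments in H2afy_KO 1, 9 of 38 in H2afy_KO 2, 0 of 30 in H2afy_KO 3 and 1 of 34 in H2afy_KO 4. In H2afy_WT 1 to 4 it was 10 of 37, 33 of 39, 5 of 37 and 4 of 39. The lowest of all 293 ratios was 0.0462%. When the median ratio of H2afy_KO 1, 0.0905%, times the sum of the other pools was subtracted from every count, 4.24%, 98.7%, 99.8% and 99.8% of the Igkv counts were left in H2afy_KO pools 1 to 4, and 97.2%, 82.1%, 99.6% and 99.3% in H2afy_WT pools 1 to 4. H2afy_KO 1 then kept 174 counts, with 10 or more in 4 segments; since its own median was subtracted, this pool lost most of its counts by construction. Whether the Igkv counts of H2afy_KO 1 came from its own cells or from reads of other pools was not tested, and results below are given with and without that pool where they rest on it.

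H2afy_WT 2 lay on the same ratio except for a few segments. Its 6 exceptions among 39 reached 13.9% of the other pools, for Igkv1-99. Igkv4-69 had 8119 counts in H2afy_WT 2, against 4, 22, 71 and 39 counts in H2afy_KO 1 to 4 and 12, 32 and 305 counts in H2afy_WT 1, 3 and 4. After the subtraction Igkv4-69 held 45.2%, Igkv12-44 19.3%, Igkv6-32 14.3% and Igkv1-99 10.2% of the counts left in H2afy_WT 2. Igkv14-126, the leader elsewhere, had 1459 counts in this pool, which is 0.0862% of the other pools' sum.

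**Figure D2:**
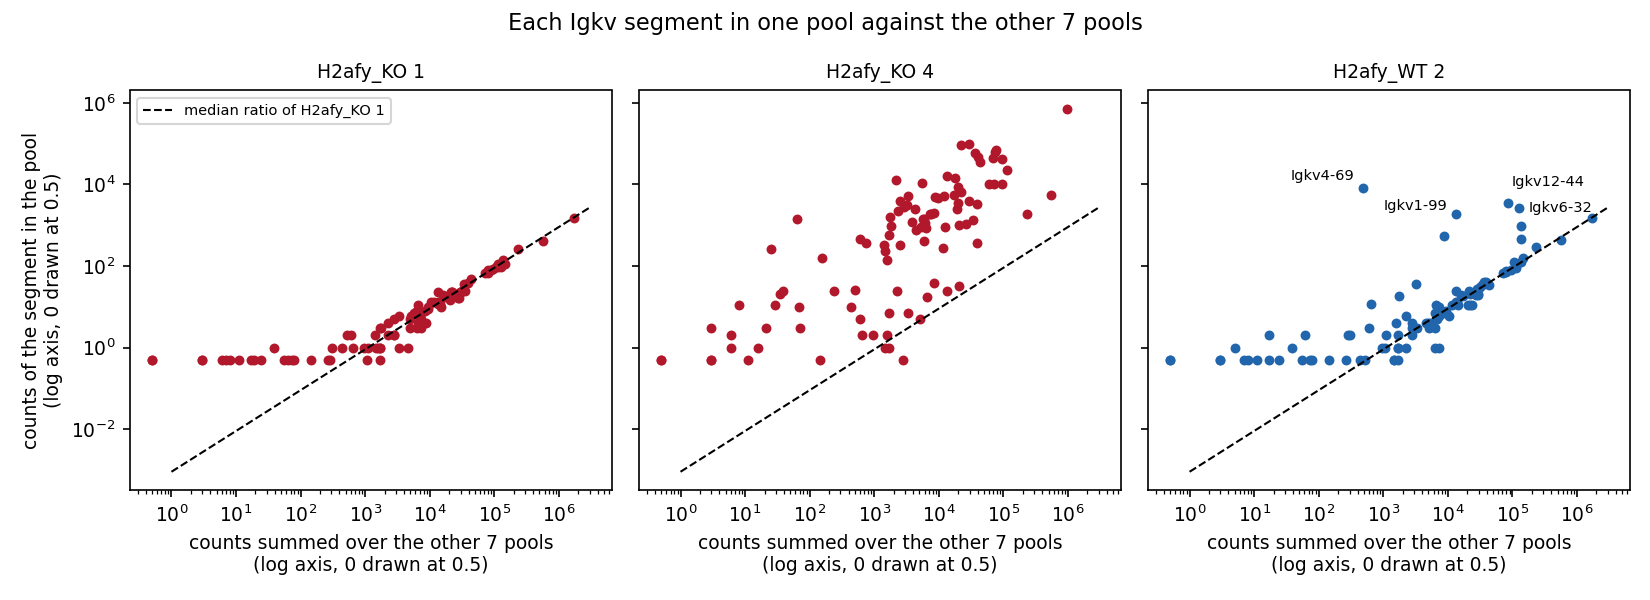
Each point is an Igkv segment: its count in 1 pool (vertical) against its count summed over the other 7 pools (horizontal), both on log axes with 0 drawn at 0.5, for H2afy_KO 1, H2afy_KO 4 and H2afy_WT 2. The dashed line is the median ratio of H2afy_KO 1, 0.0905%; H2afy_KO 1 follows it, H2afy_KO 4 lies mostly above, and Igkv4-69, Igkv12-44, Igkv6-32 and Igkv1-99 leave it in H2afy_WT 2.

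In every pool a handful of segments carried most of the Igkv counts. The effective number of segments, which is 1 over the sum of squared shares and counts how many equal shares would give the same concentration, was 6.31, 5.32, 7.02 and 3.92 in H2afy_KO pools 1 to 4, against 9.52, 5.14, 3.19 and 5.35 in H2afy_WT pools 1 to 4. The means were 5.64 ± 1.35 in H2afy_KO and 5.80 ± 2.67 in H2afy_WT (SD, n = 4 each), and the groups overlapped, with the highest and the lowest value both among the H2afy_WT pools. It took 14 to 24 segments to hold 90% of the Igkv counts in H2afy_KO and 9 to 21 in H2afy_WT. Averaged over the 8 pools, the 12 leading segments held 75.3% and the lower 50 held 1.59%. Of the 100 segments 2 had no count in any pool, Igkv10-96 and Igkv1-115, and 70 were counted in all pools. In all, 28 never passed 0.1% of a pool's Igkv counts, 35 reached 1% in at least 1 pool, 16 reached 5% and 9 reached 10%. Only Igkv14-126 and Igkv4-59 held at least 1% in all 8 pools, and 13 segments did so in a single pool.

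Igkv14-126 (ENSMUSG00000076509, chromosome 6, 67846171 to 67846636 on the plus strand) led 6 of the 8 pools. It held 36.9%, 38.3%, 31.1% and 48.7% of the Igkv counts in H2afy_KO pools 1 to 4, against 24.0%, 6.68%, 26.6% and 37.4% in H2afy_WT pools 1 to 4. H2afy_KO 4 was highest and H2afy_WT 2 lowest, and the groups overlapped (38.8 ± 7.32% in H2afy_KO and 23.7 ± 12.7% in H2afy_WT, SD, n = 4 each). Without H2afy_KO 1 its mean was 39.4 ± 8.84% in H2afy_KO (SD, n = 3). None of its 50-base stretches within an exon occurs in another Igkv segment, so a read matching such a stretch exactly is not shared with a family member. Reads with mismatches or across the exon junction were not examined.

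Igkv14-130 (ENSMUSG00000076506, 67741040 to 67741505, plus strand), its neighbour in family 14, was concentrated in some of the H2afy_WT pools. It held 9.93%, 1.02%, 0.115% and 0.366% in H2afy_KO pools 1 to 4, against 0.332%, 1.99%, 48.9% and 18.7% in H2afy_WT pools 1 to 4. H2afy_WT 3 and H2afy_WT 4 stood above all others, and H2afy_KO 1 came next among the pools, at a count of 0.0731% of the other pools' sum. Without H2afy_KO 1 the H2afy_KO mean was 0.501 ± 0.468% (SD, n = 3), against 17.5 ± 22.5% in H2afy_WT (SD, n = 4). Its log2 fold change in CPM was -5.62 (SE 2.50, edgeR adjusted p = 0.680), and its 50-base stretches within an exon were also unique among Igkv segments.

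Other large shares belonged to 1 pool each. Igkv5-43 (69773349 to 69773905, minus strand) held 6.39%, 0.0640%, 18.2% and 0.129% in H2afy_KO pools 1 to 4, against 0.627%, 1.33%, 0.143% and 0.291% in H2afy_WT pools 1 to 4. It was thus the second segment of H2afy_KO 3 and rare in H2afy_KO 2 and H2afy_KO 4. Igkv1-135 (67559739 to 67560502, plus strand) held 2.29%, 16.9%, 1.63% and 0.711% in H2afy_KO, and 0.550%, 0.586%, 1.77% and 1.49% in H2afy_WT. It was the second segment of H2afy_KO 2 and far smaller in every other pool. Igkv9-120 (67999977 to 68000450, plus strand) held 1.61%, 1.39%, 1.10% and 0.685% in H2afy_KO, and 14.03%, 0.307%, 1.64% and 1.57% in H2afy_WT. Only H2afy_WT 1 stood out for it, and the same pool had the largest share of Igkv19-93, at 12.4% against 1.49% to 4.46% in H2afy_KO and 0.397% to 5.16% in the other H2afy_WT pools. Igkv4-69 (69233788 to 69234313, minus strand) held 0.0976%, 0.00745%, 0.00574% and 0.00265% in H2afy_KO, and 0.00858%, 37.1%, 0.00350% and 0.0577% in H2afy_WT.

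Igkv4-59 (69388212 to 69388735, minus strand) was the most even of the large segments. It held 3.44%, 2.27%, 2.99% and 2.84% in H2afy_KO pools 1 to 4, against 2.80%, 4.28%, 3.84% and 2.40% in H2afy_WT pools 1 to 4. The groups overlapped within this narrow range. Of its 50-base stretches 84.3% also occur in other Igkv segments, the largest portion of any segment, so reads of near-identical neighbours can be counted here and its own can be lost. Of the other leading segments, Igkv12-44 held 1.63% to 3.21% in H2afy_KO and 0.327% to 16.2% in H2afy_WT, and Igkv6-32 0.419% to 6.68% in H2afy_KO and 0.0701% to 12.2% in H2afy_WT. Igkv15-103 held 0.700% to 4.71% in H2afy_KO and 0.714% to 5.72% in H2afy_WT, and Igkv8-30 0.688% to 5.13% in H2afy_KO and 0.339% to 5.56% in H2afy_WT. The groups overlapped in all 4. Over all 100 segments, 72 shared at least 1 such stretch and 28 shared none. Igkv5-43 shared 63.9%, Igkv6-20 46.7%, Igkv1-135 43.9% and Igkv4-69 33.6%, while Igkv19-93, Igkv6-32 and Igkv15-103 shared 0%.

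**Figure D3:**
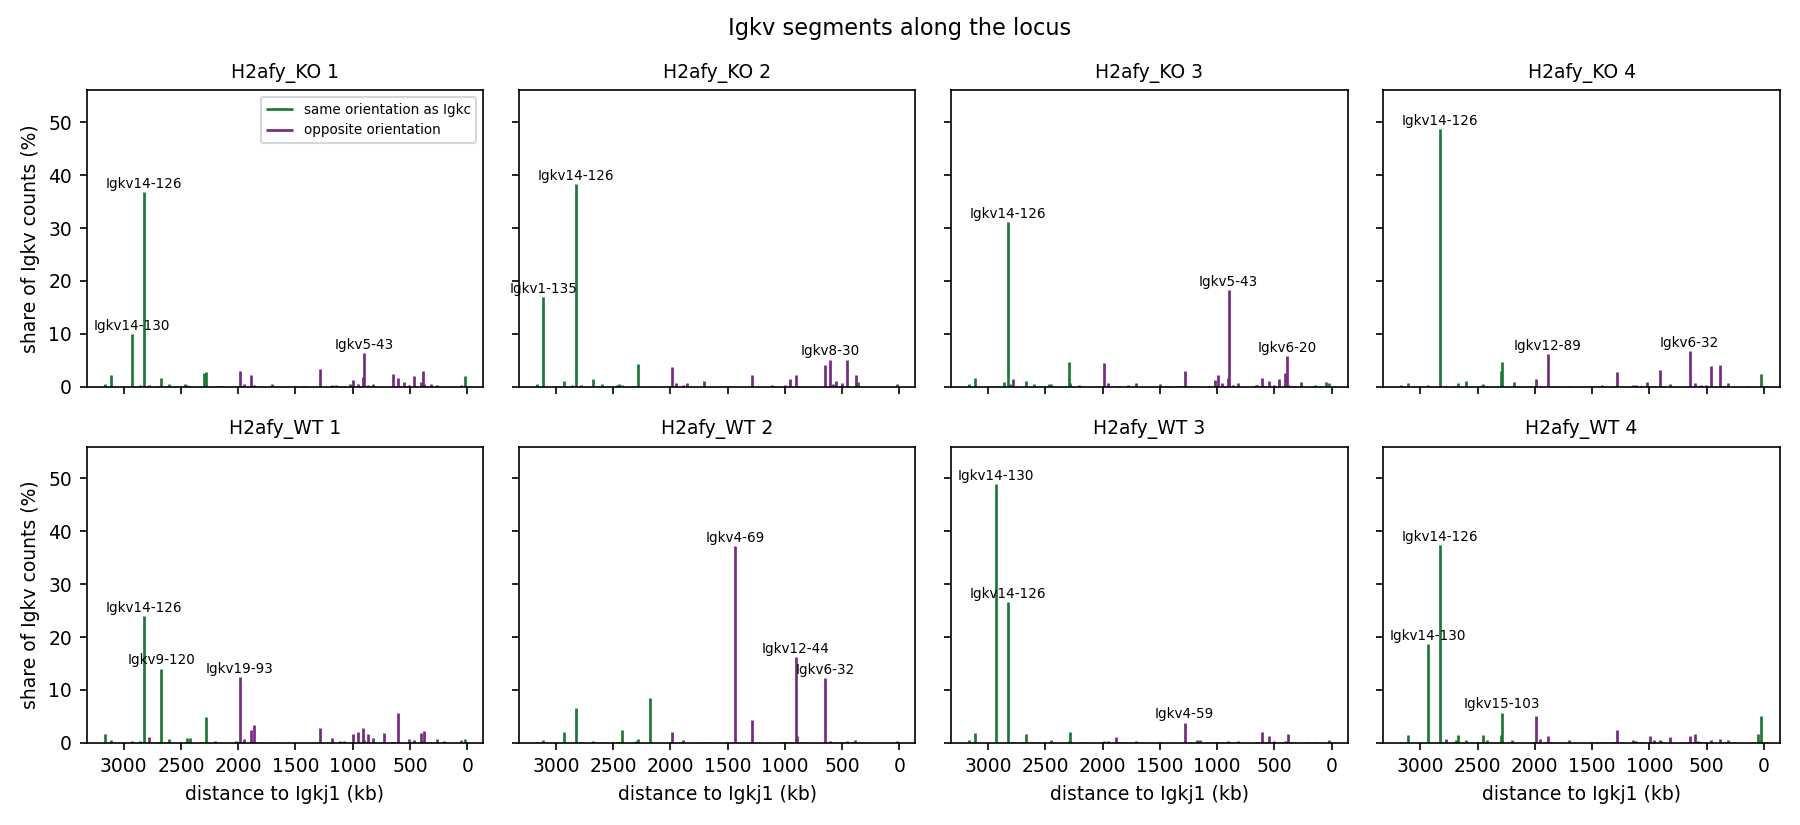
Each vertical line is an Igkv segment, at its distance to Igkj1 (kb) and with its share of the pool's Igkv counts (%) as height; H2afy_KO pools are in the upper panels and H2afy_WT pools in the lower ones, colours give the orientation relative to Igkc, and the 3 leading segments are named. Igkv14-126 stands out in 7 of the 8 panels, and a second tall line changes from pool to pool.

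By family, Igkv14 led the mean and family size did not set the order. The 4 segments of family 14 held 47.6%, 39.6%, 32.1% and 49.5% in H2afy_KO pools 1 to 4, against 24.8%, 8.81%, 75.5% and 56.9% in H2afy_WT pools 1 to 4. The means were 42.2 ± 7.99% in H2afy_KO and 41.5 ± 30.2% in H2afy_WT (SD, n = 4 each). The H2afy_KO values lay inside the H2afy_WT range. When counts were summed over the pools of a genotype first, so that the richest pools weighed most, family 14 was 22.6 percentage points lower in H2afy_KO. Family 4, the largest with 26 segments, held 10.6% on average and owed this to H2afy_WT 2. It took 4.90% to 7.47% in the H2afy_KO pools, and 5.58%, 42.1%, 6.30% and 5.49% in H2afy_WT pools 1 to 4.

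Family 6 held 8.59%, 9.48%, 9.26% and 15.8% in H2afy_KO pools 1 to 4, against 1.5%, 13.3%, 0.655% and 2.64% in H2afy_WT pools 1 to 4. All H2afy_KO pools were above 3 of the 4 H2afy_WT pools, and H2afy_WT 2, with its share of Igkv6-32, overlapped with them. Family 5 held 8.22%, 0.631%, 21.4% and 0.976% in H2afy_KO, and 3.21%, 1.67%, 0.484% and 2.66% in H2afy_WT. Here H2afy_KO 3 stood apart, through Igkv5-43. The other families held on average 6.46% (family 12), 6.37% (family 1), 5.55% (family 8), 4.11% (family 19), 3.35% (family 9), 3.23% (family 15), 2.20% (family 3), 1.59% (family 16) and 1.18% (family 2), and the rest under 1% each. Within these, Igkv16-104, the single segment of family 16, held 0.0305% to 4.71% in H2afy_KO and 0.0622% to 1.42% in H2afy_WT. Igkv3-2, the leader of family 3, held 0.585% to 2.42% in H2afy_KO and 0.329% to 5.12% in H2afy_WT, and Igkv2-109, the leader of family 2, held 0.129% to 0.251% in H2afy_KO and 0.0593% to 2.44% in H2afy_WT. The shares of the genotypes overlapped in all 19 families.

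**Figure D4:**
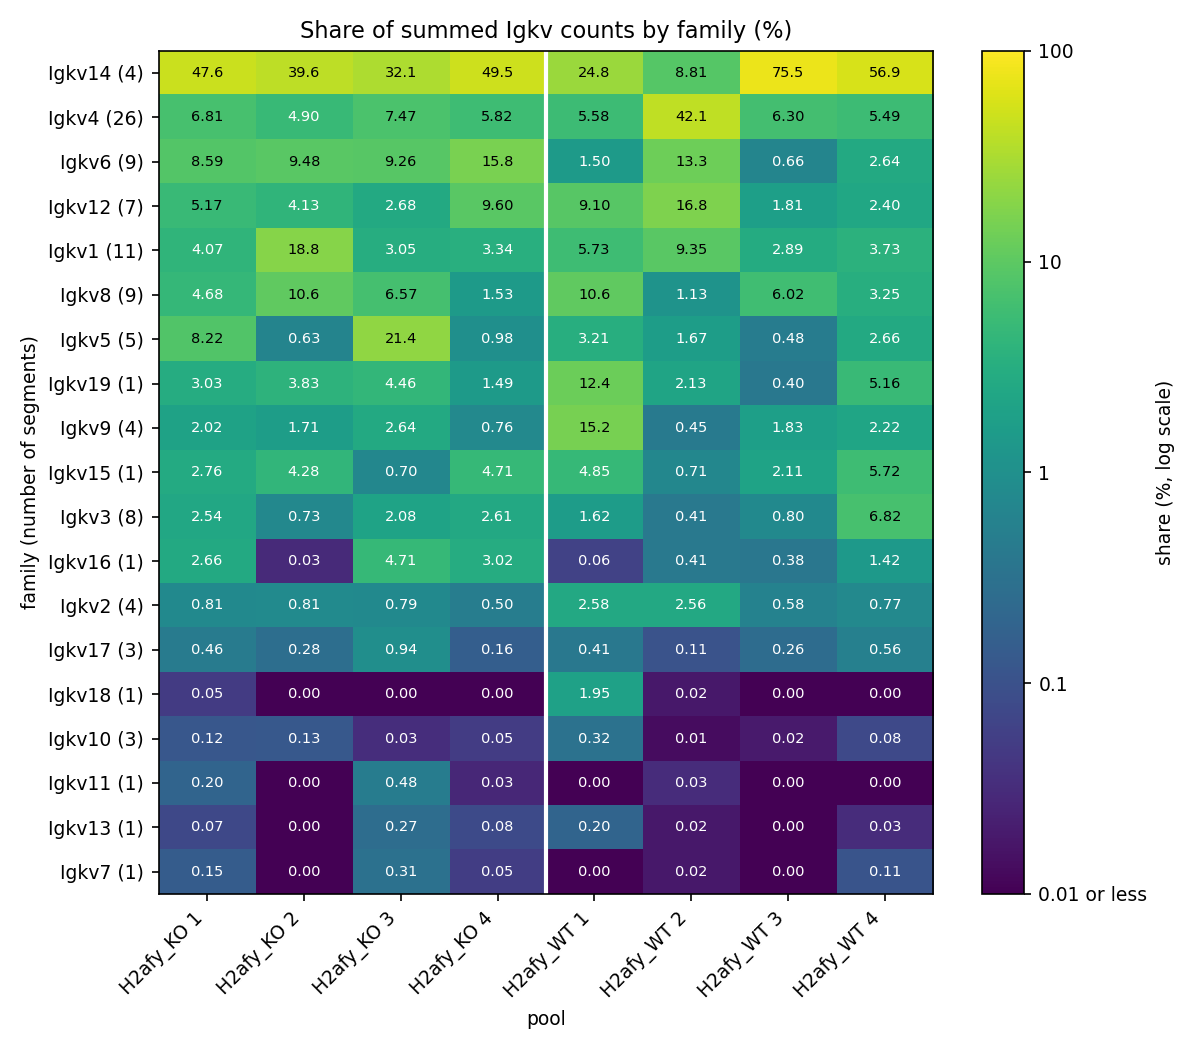
Rows are the 19 Igkv families with their number of segments, columns the pools, with H2afy_KO left of H2afy_WT; colour (log scale) and numbers give the family's share of the pool's Igkv counts (%). Family 14 leads in 7 of the 8 pools and family 4 leads in H2afy_WT 2 at 42.1%.

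Position and orientation did not separate the genotypes. The proximal 50 segments (18.4 to 1344 kb from Igkj1) held 32.0%, 28.01%, 47.4% and 29.1% in H2afy_KO pools 1 to 4, against 30.0%, 37.5%, 13.7% and 20.2% in H2afy_WT pools 1 to 4. H2afy_KO 3 was highest and H2afy_WT 3 lowest, and the groups overlapped (34.1 ± 9.01% in H2afy_KO and 25.4 ± 10.5% in H2afy_WT, SD, n = 4 each). With the locus cut at its middle in kb rather than by number of segments, H2afy_WT 2 moved to 74.8%, because Igkv4-69, at 1438 kb, then fell in the proximal part. Segments in the orientation of Igkc held 63.0%, 66.3%, 46.5% and 65.0% in H2afy_KO, and 51.0%, 22.8%, 84.6% and 77.6% in H2afy_WT. The H2afy_KO values lay within the H2afy_WT range. Over the 98 counted segments, distance to Igkj1 and mean share had a rank correlation of 0.05, given as a description, since segments of a family share sequence and all come from the same 8 libraries.

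Set against each other, the H2afy_KO pools had a higher median overlap of their segment mix than the H2afy_WT pools. The overlap of 2 pools, the sum over segments of the smaller of both shares, was 55.0% to 72.1% between H2afy_KO pools, with a median of 66.0% over 6 pairs, and 18.8% to 63.1% between H2afy_WT pools, with a median of 32.1% over 6 pairs. Between genotypes it was 22.1% to 76.4%, with a median of 49.6%. Without H2afy_KO 1, whose mix was close to that of all other pools together, the 3 H2afy_KO pairs had a median of 56.6% and the pairs between genotypes 46.7%. Without H2afy_WT 2, whose 3 pairs with H2afy_WT pools overlapped by 18.8% to 21.8%, the H2afy_WT median was 53.3% over 3 pairs. With both of these pools left out, the medians were 56.6% in H2afy_KO, 53.3% in H2afy_WT and 52.2% between genotypes, so the difference rested on H2afy_KO 1 and H2afy_WT 2. Pairs share pools, so no test was made of these values.

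Tested as levels across all genes with edgeR, no segment passed the test between the genotypes. Of the 100 segments 69 passed the filter on low counts and 31 did not, and 0 were higher and 0 lower at an adjusted p of 0.05, as for 0% of all 13722 genes tested. Their adjusted p-values were 0.579 to 0.995. At an unadjusted p under 0.05 there were 4 of 69 higher and 0 lower, against 3.88% of all genes higher and 3.69% lower (7.58% in either direction). A positive log2 fold change was found for 60 of 69, with a median of 1.74, against 50.1% and a median of 0.00 over all genes. That median rested on the pools with the most Igkv counts. It was 0.46 without H2afy_KO 3 and -1.78 without both H2afy_KO 3 and H2afy_KO 4, where 12 of 74 tested segments were positive. As these pools held the most Igkv counts of all, leaving them out lowers the summed Igkv level of H2afy_KO by construction. The CPM of the genotypes overlapped in all 69, while 4.53% of all genes did not overlap.

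The 4 segments with the smallest p-values were each high in some of the H2afy_KO pools. Igkv6-20 (70285835 to 70286500, minus strand) had 126, 343, 72271 and 60827 counts in H2afy_KO pools 1 to 4, against 120, 122, 118 and 704 counts in H2afy_WT pools 1 to 4. H2afy_KO 3 and H2afy_KO 4 were far above the rest, and the counts of H2afy_KO 1 and of H2afy_WT 1, 2 and 3 were 0.0937%, 0.0892%, 0.0907% and 0.0877% of the other pools' sums, close to the lower bound described above. Its log2 fold change was 7.44 (SE 2.54, edgeR adjusted p = 0.579), and under DESeq2 the adjusted p was 0.00240. Igkv5-45 (69725744 to 69726300, minus strand) had 3, 35, 1312 and 331 counts in H2afy_KO, and 14, 18, 9 and 17 counts in H2afy_WT. It too was high in H2afy_KO 3 and H2afy_KO 4, with a log2 fold change of 5.43 (SE 1.89, edgeR adjusted p = 0.592) and a DESeq2 adjusted p of 0.0245. These were the 2 Igkv segments called by DESeq2, both higher, where it called 0.357% of all genes higher and 0.539% lower (0.897% in either direction). A fit with replicate as a blocking term called 0 of the 69 segments, against 0.0292% of all genes higher and 0.0802% lower (0.109% in either direction).

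Igkv6-23 (70210403 to 70210927, minus strand) had 2.73, 643, 1102 and 2439 CPM in H2afy_KO pools 1 to 4, against 25.4, 2.98, 4.94 and 89.99 CPM in H2afy_WT pools 1 to 4. Its level was high in 3 H2afy_KO pools and overlapped through H2afy_KO 1 (log2 fold change 5.08, SE 2.04, edgeR adjusted p = 0.637). As a share of Igkv counts it held 2.10%, 5.00%, 1.47% and 3.92% in H2afy_KO, and 0.538%, 0.361%, 0.0129% and 0.453% in H2afy_WT, with no overlap. Its counts in H2afy_KO 1, H2afy_WT 2 and H2afy_WT 3 were 0.0914%, 0.0840% and 0.125% of the other pools' sums, close to the lower bound described above. Shares of the genotypes did not overlap in 3 of the 100 segments (3%), all higher in H2afy_KO. In CPM, 0 of the 100 segments and 4.53% of all tested genes did not overlap, in either direction. The 3% is of shares and not of CPM, so it cannot be set directly against that percentage. The other segments without overlap were Igkv14-111 and Igkv4-73, named after their values were seen. Without H2afy_KO 1 the share of Igkv6-23 averaged 3.47 ± 1.81% in H2afy_KO (SD, n = 3), against 0.341 ± 0.230% in H2afy_WT (SD, n = 4). Igkv4-63 had 2, 15, 2163 and 24 counts in H2afy_KO and 11, 6, 20 and 11 counts in H2afy_WT, so H2afy_KO 3 alone stood out (log2 fold change 6.16, SE 2.54, edgeR adjusted p = 0.657). Igkv4-69 went the other way through H2afy_WT 2 (log2 fold change -5.57, SE 2.41, edgeR adjusted p = 0.674). Igkv14-126, the most abundant segment, had 48.0, 4918, 23356 and 30270 CPM in H2afy_KO, and 1134, 55.1, 10176 and 7429 CPM in H2afy_WT (log2 fold change 1.64, SE 1.90, edgeR adjusted p = 0.880).

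**Figure D5:**
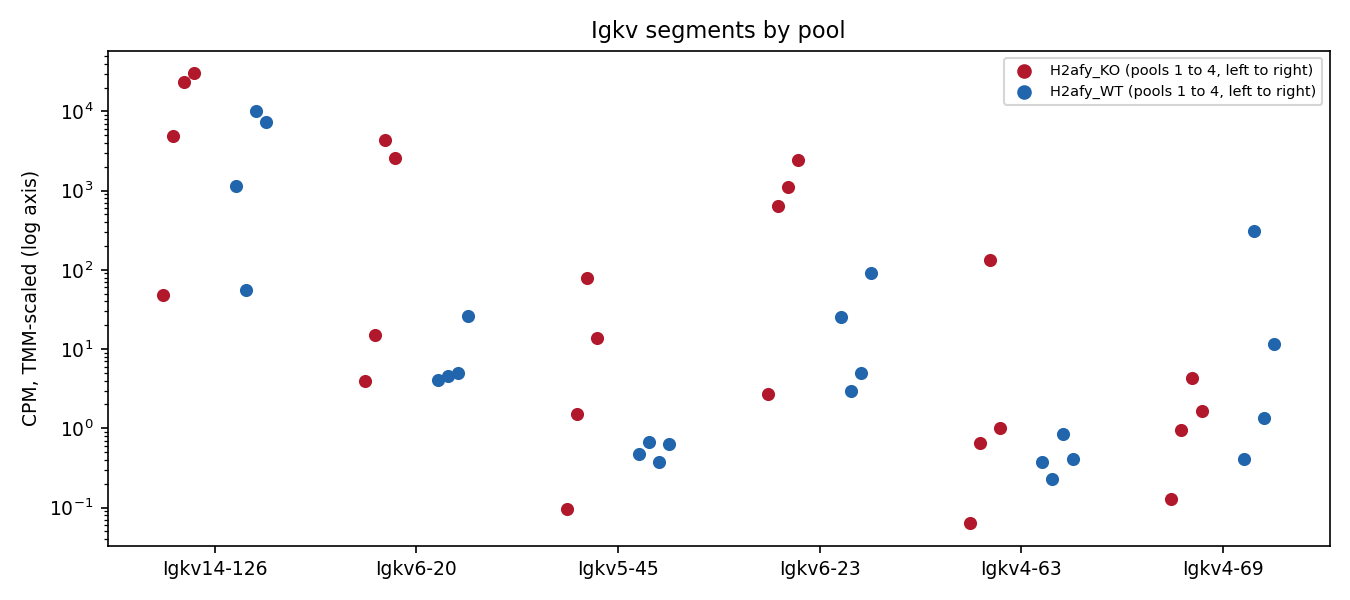
CPM (TMM-scaled, log axis) of Igkv14-126 and the 5 tested segments with the smallest p, 1 point per pool, with H2afy_KO left of H2afy_WT for each segment. Igkv6-20 is high in H2afy_KO 3 and H2afy_KO 4 and low in the other 6 pools, Igkv4-69 is high in H2afy_WT 2, and the groups overlap for all 6.

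Genes that open, join or pair with the kappa locus were measured beside the segments. Of 51 listed genes 45 were in the count table and 40 were tested, and 0 were called by edgeR. In 11 of the 40 the genotypes did not overlap with lower CPM in H2afy_KO, against 2.35% of all genes. In 1 of the 40, Irf8, they did not overlap with higher CPM, where 4.53% of all genes did not overlap in either direction. Irf8, a transcription factor that with Irf4 acts on kappa enhancers, had 318, 272, 355 and 353 CPM in H2afy_KO pools 1 to 4, against 122, 164, 180 and 174 CPM in H2afy_WT pools 1 to 4. All H2afy_KO pools were higher (log2 fold change 1.02, SE 0.15, edgeR adjusted p = 0.0722). With the replicate number as a block its adjusted p was 0.0420. Rag1, a subunit of the recombinase, had 63.8, 93.5, 24.1 and 71.3 CPM in H2afy_KO, and 213, 320, 116 and 143 CPM in H2afy_WT. All H2afy_KO pools were lower (log2 fold change -1.65, SE 0.47, edgeR adjusted p = 0.475), and with the block the adjusted p was 0.0467.

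The other 4 named genes of this list were likewise not called by edgeR. Foxo1, which drives Rag transcription, had a log2 fold change of -0.90 (SE 0.22, edgeR adjusted p = 0.419). Blnk, an adaptor of pre-B cell receptor signalling, had one of -0.78 (SE 0.20, adjusted p = 0.426), and Vpreb2, a surrogate light chain gene whose reads may be split with its close copy Vpreb1, one of -1.45 (SE 0.40, adjusted p = 0.467). The levels of these 3 did not overlap between the genotypes. Dntt, the enzyme that adds bases at junctions, averaged 4017 ± 751 CPM in the H2afy_KO pools and 5663 ± 649 CPM in those of H2afy_WT (SD, n = 4 each), with overlap (log2 fold change -0.50, SE 0.16, adjusted p = 0.489). DESeq2 called Rag1 (adjusted p = 0.00240), Foxo1 (0.0217), Blnk (0.0283) and Vpreb2 (0.00772) lower and Irf8 higher (1.4e-06), but not Dntt (0.126). Of the 40 tested genes of the list, DESeq2 called 5 lower and 1 higher. Over all genes it called 0.539% lower and 0.357% higher.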

How the data were processed

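RNA of sorted progenitors was amplified with an unstranded low-input kit and read from 1 end. Per the submitters' processing notes, HISAT2 2.0.6 was the aligner and mm9 the build; the counter, and the treatment of reads with several matches, were not given in the sources used here. As counts, the authors deposited unnormalized whole numbers per Ensembl gene. GENCODE M1 (NCBIM37) named 37205 of the 37991 IDs and 786 had no match. Sequences were read from the NCBIM37 genome.

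Shares are a segment's percentage of the summed Igkv counts of its pool, and group values are means of 4 pools with equal weight, described without a test. Counts were tested with the edgeR 4.0.16 quasi-likelihood test (R 4.3.3, TMM factors, filterByExpr with a minimum count of 10, robust fitting, no covariate) on all 13722 genes passing the filter, with p-values adjusted by Benjamini-Hochberg and called under 0.05; fold changes are H2afy_KO over H2afy_WT. Alternatives included DESeq2 1.42.0, other scalings, no filter, a replicate block and each pool left out. No 2 pools agreed within sampling noise (smallest chi-square per degree of freedom 92.2). P-values measure the spread between pools.

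Segments were named by rule: the 12 with the highest mean share, the 2 leaders of each pool, the 5 smallest edgeR p-values and the leader of each family of at least 1%; also Igkc, Igkj, 6 genes of the light chain list and 10 cell markers, of which 1 is not reported here. Cd74 was named besides, for its part in a summed level. The members and lists were chosen with earlier results of these data known. Of the list genes, Iglc1, Iglc4, Iglj1 to Iglj3, Syk and Ighd were not analysed here.

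The labels number the replicates 1 to 4 in both groups. Pools of the same number deviated together from their group means, at r = 0.25, 0.26, 0.37 and 0.45 over all tested genes, all over 0.1. A fit with the replicate number as a block was therefore run as an alternative, while the main fit left the pools unpaired. Pools of different numbers reached higher values (0.54 for H2afy_KO 1 with H2afy_WT 2 and 0.48 for H2afy_KO 3 with H2afy_WT 4), so the pairing is no more than a hint from the data. Over Igkv segments alone the same correlations were 0.02, -0.35, -0.23 and 0.18.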

Additional observations from a re-analysis of the deposited data

Results flagged for a closer look

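Of 66 sets of 4 pools examined, 15 held a pool whose gap to its nearest neighbour passed Dixon's 95% critical value relative to the range. Chance gives about 1 in 20 for a set not chosen by its values. That rate cannot be set against the 15, because segments were named for large shares, which a single outlying pool can give. The sets also overlap, since families hold the named segments. H2afy_WT 2 stood apart in 5 of the 15. Its share of Igkv counts was 42.1% for family 4, 13.3% for family 6, 37.1% for Igkv4-69, 16.2% for Igkv12-44 and 12.2% for Igkv6-32. H2afy_KO 1 had 9.93% of Igkv14-130 and 0.0976% of Igkv4-69, on 4 counts. H2afy_KO 2 had 18.8% of family 1 and 16.9% of Igkv1-135. In H2afy_KO 3, segments in the orientation of Igkc held 46.5%. H2afy_KO 4 had 15.8% of family 6 and 0.502% of family 2. H2afy_WT 1 had 15.2% of family 9 and 14.03% of Igkv9-120, and needed 3 segments to reach 50% of its Igkv counts.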

How the results depend on the processing

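The count of Igkv segments called higher was 0 with edgeR and 2 with DESeq2 (Igkv6-20 and Igkv5-45), and the cause was not tested. It was 0 with RLE factors, immunoglobulin genes left out of library sizes, no filter, the replicate block and each pool left out. The block called 15 genes, 0 of them Igkv, and among the named genes changed no call other than those of Irf8 and Rag1. The H2afy_KO minus H2afy_WT difference in the Igkv share of all counts was 1.37 percentage points, and -0.902 with H2afy_KO 3 and 4, the highest pools, left out. Family 14 was at 0.73 percentage points, and at -22.6 with counts of a genotype summed first. The effective number differed by -0.16, and by 2.25 as the exponential of Shannon entropy. With 1 pool left out these ranged over 0.556 to 2.35, -10.2 to 12.1 and -1.03 to 1.08. Counts per exon length and subtraction of the ratio to the other pools were chosen after seeing the data; the 12 leading segments were the same per exon length. Of 251 values of pool measures under an alternative, 245 moved by less than 1 SD, 37 of these with a turned sign. An alternative with functional segments alone was not run, since the annotation types no Igkv gene as a pseudogene. In H2afy_KO 1, 3 counts are 0.0732% of its Igkv counts, so a share below that rests on fewer than 3 counts there.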
